A study of Mus musculus with 6 samples.

Results

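Ribosome biogenesis genes and Myc were followed in the epidermis of newborn mouse back skin. The set comprised 34 genes chosen by symbol, of 24014 symbols in the count tables, and all 34 were present and had enough counts to be tested. It held the transcription factor gene Myc, RNA polymerase I genes, and genes for the proteins that modify, cut and assemble ribosomal RNA into the 2 subunits. The blister group was 3 libraries from wild type dorsal skin on which a suction blister (typically 3 mm across, raised under a syringe of 4 mm at a negative pressure of 523.4 mmHg) was healing. The control group was 3 libraries from wild type dorsal skin described as control skin. All were collected at postnatal day 2 and held cells freed from the epidermis with trypsin, so a library contained whatever cells came away with it. Neither strain and sex nor how many animals gave each library is stated in the sources used here, so p-values rest on library-to-library spread that may be partly technical.

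A ribosome is built in the nucleolus, where RNA polymerase I transcribes a long precursor RNA. Small nucleolar ribonucleoproteins (snoRNPs) then guide its chemical modification, and dedicated factors cut the precursor and fold it into the small and the large subunit. Myc is known as a transcriptional activator of many of these genes, and in the epidermis it is known for driving basal cells to proliferate and to leave the stem cell state.

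Totals ran from 7600567 to 12972196 counts in the blister libraries and from 11743139 to 15912863 in the controls. Each of the 34 genes had between 339 and 17440 counts in every library. Levels are given as CPM, counts scaled to library total and a TMM factor, with no correction for gene length, and so serve to compare libraries but not genes. Values of single libraries run in the order 1, 2, 3. The keratinocyte gene Krt14 averaged 28611 CPM in blister and 7730.1 CPM in control, and Krt5 19621 against 11399 CPM, so the labelled cell type was present in both groups. Of 8 keratinocyte markers 4 rose (these 2, Dsg3 and Dsp), with a median log2 fold change of 0.82. Krt15, a keratin of basal and follicle stem cells, went the other way, with a log2 fold change of -0.64 that did not pass in edgeR (adjusted p = 0.0695), and DESeq2 called 1 of the 8 lower. Markers of other cells also moved between the groups. For these counts, 9.74% of all genes tested rose and 11.6% fell in the edgeR test described below. The summed level of 12 hair matrix and inner root sheath markers was 296 to 1129 CPM in blister libraries and 2905 to 5468 CPM in controls, and 10 of the 12 fell, led by Shh, Lef1 and Msx2. Of 12 dermal fibroblast markers 4 fell and 1 rose (1098 to 2160 CPM in blister libraries, 1512 to 7935 CPM in controls). The top of the control range was control 3 alone. Control 1 and 2, at 1512 and 1828 CPM, lay below blister 2 at 2160 CPM. Of 8 melanocyte markers 6 fell, among them Pmel and Dct (353 to 575 CPM in blister, 892 to 1072 CPM in control). Of 10 neutrophil markers 9 rose, led by S100a9, S100a8 and Trem1 (318 to 1033 CPM in blister, 30.6 to 44.0 CPM in control). Of 12 macrophage and Langerhans cell markers 2 rose, of 7 endothelial markers 2 fell, and of 5 T cell markers 0 were called (1 lower at an unadjusted p under 0.05, 0 in DESeq2 and limma-voom). Red blood cell RNA was near the floor, with 4 of 7 markers at 0 in all libraries and 1 of the 2 tested falling. No other gene of these lists was at 0 in every library. The part of these cells in the results was not tested. In bulk RNA, fewer cells of a type and less RNA per cell cannot be told apart.

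Myc and most of the ribosome biogenesis genes were higher in healing blisters. Of the 34 genes 20 rose and 0 fell, with edgeR's quasi-likelihood test at a threshold of 0.05 on the p-value after Benjamini-Hochberg adjustment over 14028 genes, where 9.74% of all genes rose and 21.3% changed in either direction. The rises were modest, between 1.27-fold and 2.11-fold, and Myc had the largest of them. The log2 fold change was positive for 33 of the 34 genes, against 50.1% of all genes, with a median of 0.56 (1.47-fold) against 0.00 over all genes. All 3 blister libraries lay above all 3 controls for 26 of the 34 genes, against 21.4% of all genes in that direction, and in 0 genes did they lie below. At an unadjusted p under 0.05 edgeR had 30 genes higher and 0 lower. DESeq2 called 23 higher and 0 lower, against 13.9% of all genes higher. With limma-voom 17 were called higher and 0 lower, against 9.31% of all genes higher. The share of all genes at an unadjusted p under 0.05 was not computed.

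**Figure D1:**
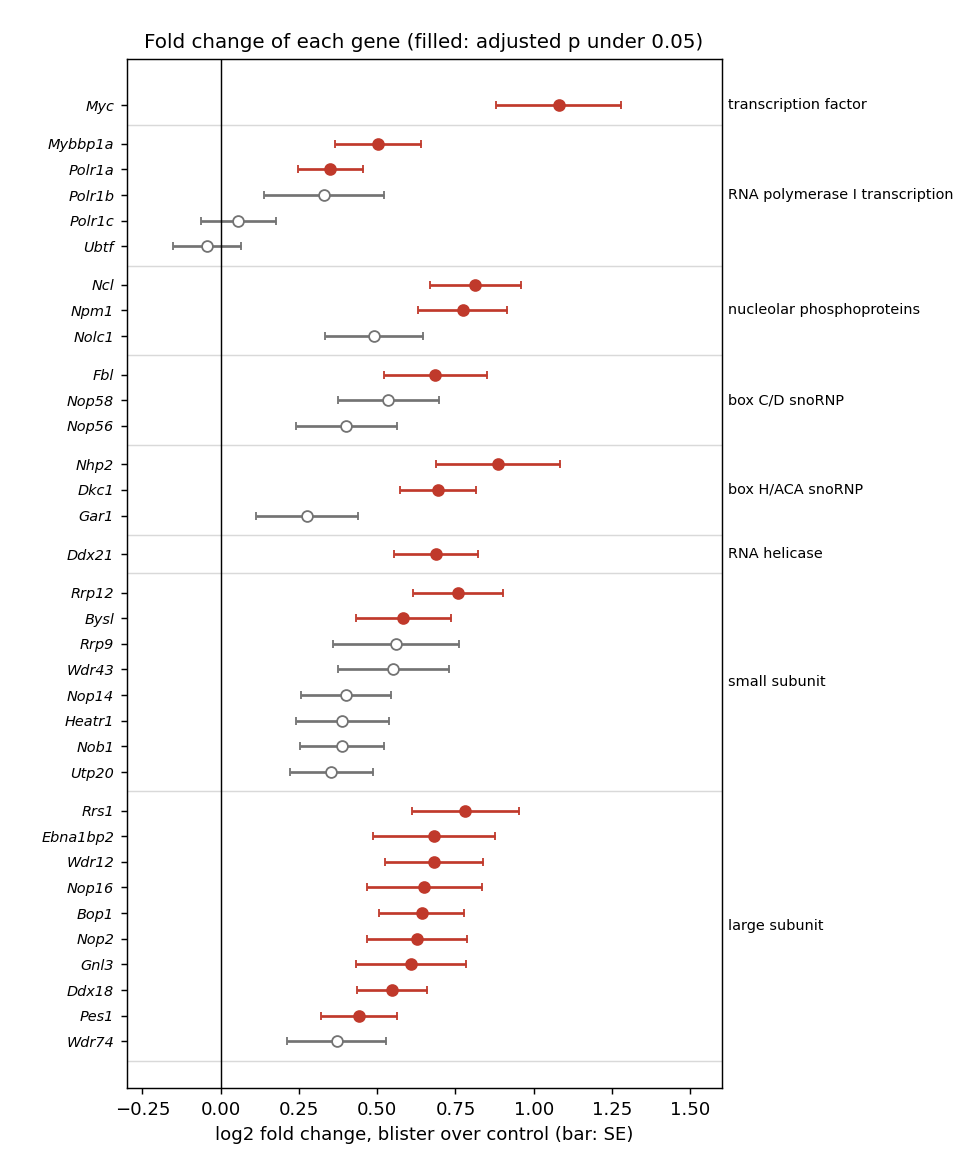
Log2 fold change of each of the 34 genes, blister over control, with its SE from edgeR, grouped by role; filled points had an adjusted p under 0.05. Myc sits farthest to the right at 1.08, 9 of the 10 large-subunit genes are filled, and Ubtf and Polr1c sit near 0, at -0.04 and 0.06.

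The number of calls moved more between ways of processing than the size of the rise did. In 6 leave-one-out fits, each without 1 library, edgeR called 5 of the 34 genes without blister 1, 9 without blister 2, 28 without blister 3, 1 without control 1, 3 without control 2 and 7 without control 3. These calls were all higher in blister. Over all genes the share called higher moved in the same way, at 3.74%, 7.23%, 13.9%, 2.15%, 3.35% and 3.83% in the same order. In either direction 7.2%, 14.5%, 28.3%, 5.52%, 9.14% and 9.31% of all genes were called. The median log2 fold change lay between 0.46 and 0.73 in those 6 fits. With library size as the single scaling, 5 genes were called (Myc, Npm1, Ncl, Nhp2 and Rrp12) and the median of the 34 genes was 0.30, but that scaling also placed the median of all genes at -0.25 and split all calls into 544 higher and 2831 lower, against 1367 higher and 1626 lower with TMM. Relative to the median of all genes the 34 genes stood at 0.55 both ways. A scaling factor shifts all genes of a library alike, so this difference could hardly change and is no check of the rise.

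**Figure D2:**
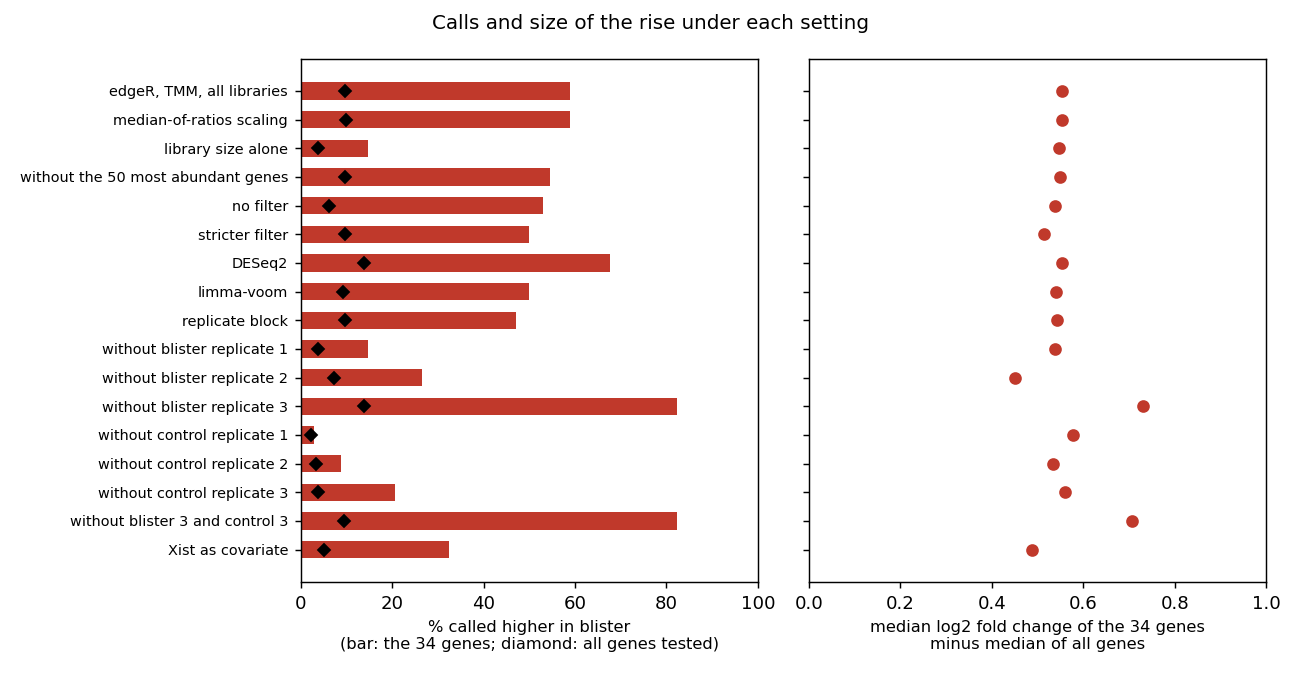
Left, the share of the 34 genes (bars; 33 without the 50 most abundant genes) and of all genes tested (diamonds) called higher in blister, in percent, under each way of processing; right, the median log2 fold change of these genes minus that of all genes. The share of calls ranged from 2.94% without control 1 to 82.4% without blister 3, while the median stayed between 0.45 and 0.73.

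The libraries of the blister group were not alike. The median level over the 34 genes was 131, 144 and 109 CPM over the blister libraries, against 92.8, 82.8 and 84.5 CPM over the controls. Blister 3 was the lowest of the blister libraries for 32 genes and blister 2 the highest for 28. Relative to the mean of the controls, the 34 genes stood at a median of 1.55, 1.68 and 1.19 times in blister 1, 2 and 3, where all genes tested stood at 0.990, 0.980 and 0.993 times. The coefficient of variation had a median of 18.5% within blister and 6.75% within control, and 32 genes had the larger SD in blister. It was not computed over all genes. Log2 CPM over all genes correlated at 0.957 to 0.975 between blister libraries and at 0.967 to 0.988 between controls. In blister 1 and 2 together 32 genes lay above every control, and in blister 3 alone 26 did. The shares of all genes that pass these criteria were not computed, so the counts only compare the blister libraries. Blister 3 also had the highest summed level of hair matrix and inner root sheath markers, at 1129 CPM against 378 and 296 CPM in blister 1 and 2. Its summed level of the listed neutrophil markers was the lowest of the blister libraries, at 318 CPM. S100a9 gave 128 CPM of that sum and S100a8 74.1 CPM. Which cells held this RNA, and the part of these cells in the results, was not tested.

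**Figure D3:**
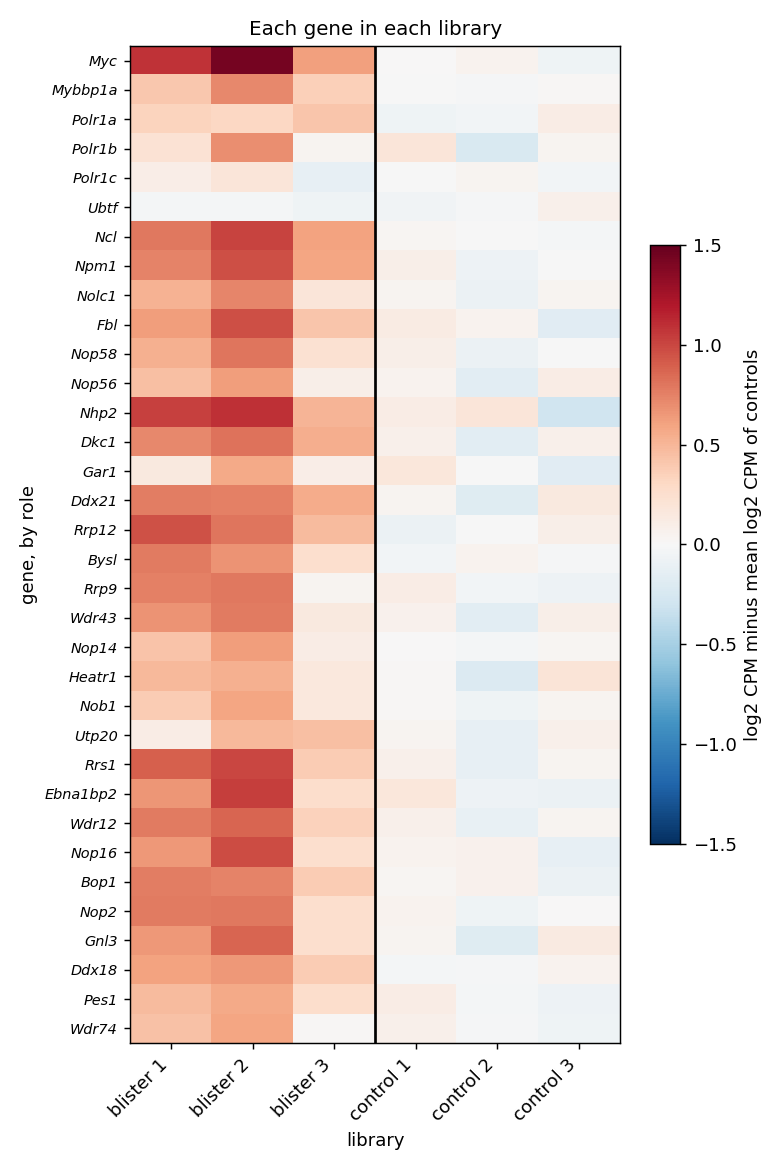
Log2 CPM of each gene in each library, minus the mean log2 CPM of the 3 controls, with blister libraries left of the line and genes in order of role. Blister 2 is the deepest red for 28 genes, blister 3 is the palest blister column for 32, and the Ubtf row is pale throughout.

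Sex-linked RNA was unevenly spread, since Xist stood above 100 CPM in blister 1, blister 2 and control 1 but not in the other 3 libraries. The Y-linked gene Ddx3y was at 0.27, 0.82 and 1.30 CPM in blister 1, blister 2 and control 1. It was at 61.9, 40.1 and 60.2 CPM in blister 3, control 2 and control 3. Within the Xist-high libraries all 34 genes were higher in blister than in control, with a median log2 difference of 0.66. Within the Xist-low libraries, where the blister library was blister 3, 32 of 34 were higher, with a median of 0.30. Neither class has replicates in both groups, so these values carry no test. The matching share and median over all genes were not computed. Myc was 2.40 times its control level in the first class and 1.53 times in the second. With the Xist level as covariate, edgeR called 11 of the 34 genes, all higher and Myc among them. Of all genes 5.0% were then called higher and 12.4% in either direction.

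Myc itself was at 221, 281 and 159 CPM in blister, against 105, 108 and 99.7 CPM in control. Every blister library lay above every control, and the controls were close together. The mean was 220.4 ± 61.0 CPM in blister and 104 ± 4.34 CPM in control (SD, n = 3 each). The log2 fold change was 1.08 ± 0.20 (SE), at an edgeR adjusted p of 0.0141. The call was kept in 5 of 6 leave-one-out fits, with an adjusted p of 0.0549 without control 1. Myc was the single gene of the set at 2-fold or more.

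The canonical Myc motif CACGTG, which reads the same on both strands, was looked for in the RefSeq promoter windows of GRCm38.p6, from 250 bases before to 50 after the start. Of the 34 genes 28 had a window; Bop1, Fbl, Myc, Npm1, Rrp12 and Rrs1 had none. Of the 28 genes 5 held the motif (17.9%), against 8.09% of 27025 genes with a window and 11.5% of the 10436 genes tested here. The 5 sites are shown with their flanks because Myc is the one transcription factor of the set; each is 30 bases, 5′ to 3′ on the strand of the gene, with the motif in capitals.
Nop2, chr6:125131811-125131840, plus strand: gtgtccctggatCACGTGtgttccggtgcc
Mybbp1a, chr11:72441347-72441376, plus strand: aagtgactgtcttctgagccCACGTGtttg
Pes1, chr11:3963965-3963994, plus strand: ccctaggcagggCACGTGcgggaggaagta
Wdr43, chr17:71616220-71616249, plus strand: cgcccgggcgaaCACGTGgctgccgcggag
Utp20, chr10:88826765-88826794, minus strand: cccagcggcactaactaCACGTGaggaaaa

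The first 3 of these genes rose in blister (edgeR adjusted p = 0.0331, 0.0385 and 0.0406), and Wdr43 and Utp20 did not pass the test (0.0629 and 0.0923). That is 3 of the 5 genes with the motif, near the share of the whole set, where 20 of 34 rose. A link between the motif and the rise was not tested. In Nop2 the motif began 60 bases before the start, and in Pes1, Wdr43, Utp20 and Mybbp1a at base 3, 18, 38 and 41 after it, so 1 of 28 genes (3.57%) held it before the start, against 6.86% of all genes. The 250 bases before the start of Nop2 (chr6:125131633-125131882, plus strand) are shown as the one promoter of the set with the motif in that stretch.
Nop2: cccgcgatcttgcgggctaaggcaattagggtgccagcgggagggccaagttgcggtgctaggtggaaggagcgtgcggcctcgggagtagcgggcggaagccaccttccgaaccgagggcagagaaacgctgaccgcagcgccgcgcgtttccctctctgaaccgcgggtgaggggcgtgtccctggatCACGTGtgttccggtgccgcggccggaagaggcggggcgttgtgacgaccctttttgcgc

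Ncl and Dkc1, with the smallest p-values of the set, had a window without these letters. A match is a description of the letters, and its absence says nothing of the factor.

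Of 13 genes that work with Myc or against it 1 rose and 2 fell, a share near the 21.3% called over all genes. The count is thus no result about the list, and the values are those of single genes. Mycn, a close relative of Myc known from embryonic tissue, was at 9.17, 9.62 and 19.8 CPM in blister, against 44.4, 46.8 and 47.2 CPM in control. It fell 3.56-fold (-1.83 ± 0.29 (SE) on the log2 scale, edgeR adjusted p = 0.00963), and the call was kept in all 6 leave-one-out fits. Mxd1, which encodes a repressor that competes with Myc for its partner Max and accompanies keratinocyte differentiation, rose: it averaged 80.1 ± 7.85 CPM in blister and 45.8 ± 4.79 CPM in control (log2 fold change 0.81 ± 0.13 (SE), edgeR adjusted p = 0.00991), kept in 6 of 6 fits. Mlxip, a sugar-responsive member of the network, fell as well (48.3 ± 10.0 against 81.6 ± 13.9 CPM, edgeR adjusted p = 0.0292, kept in 1 of 6 fits, up to 0.0983). Mycl, the member with the most counts, had a log2 fold change of -0.48 ± 0.19 and did not pass (edgeR adjusted p = 0.103). The fall of Mycn stood beside the fall of the hair matrix markers, and whether one is part of the other was not tested.

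Genes of RNA polymerase I transcription had the lowest median of the roles, a log2 fold change of 0.33, and 2 of 5 rose. Mybbp1a, whose protein binds RNA polymerase I and takes part in early precursor processing, was at 415, 514 and 400.4 CPM in blister, against 311, 309.9 and 317 CPM in control. All blister values lay above the controls, and the log2 fold change was 0.50 ± 0.14 (SE, edgeR adjusted p = 0.0385). Polr1a, the largest catalytic subunit, averaged 98.3 ± 3.67 CPM in blister and 77.1 ± 5.10 CPM in control (log2 fold change 0.35 ± 0.10, edgeR adjusted p = 0.0493), a call lost in each leave-one-out fit, with an adjusted p of up to 0.188 without control 1. The Mybbp1a call was kept in 1 of those fits and reached 0.129 without control 1. Polr1b, the second largest subunit, stood at 92.7 against 73.6 CPM (edgeR adjusted p = 0.241). Polr1c, a subunit shared with RNA polymerase III, stood at 42.7 ± 4.65 against 41.0 ± 1.26 CPM, and its log2 fold change of 0.06 ± 0.12 became -0.20 with library size as the single scaling. Ubtf, the upstream binding factor that holds ribosomal DNA in its active state, was at 262 ± 4.21 against 271 ± 12.4 CPM, and its log2 fold change of -0.04 ± 0.11 was the single negative one of the set (edgeR adjusted p = 0.791).

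Of the 3 nucleolar phosphoprotein genes 2 rose. Ncl, encoding nucleolin, which binds the nascent precursor RNA, was at 1599, 1874 and 1412 CPM in blister, against 947, 923 and 909 CPM in control. The groups were well apart, with a log2 fold change of 0.81 ± 0.14 (SE) and an edgeR adjusted p of 0.013 (the fit without control 1 alone lost the call, at 0.0558). Npm1, encoding the nucleophosmin scaffold of the outer nucleolus, averaged 672 ± 91.6 CPM in blister and 393 ± 23.5 CPM in control (SD, n = 3 each), 1.71-fold higher (edgeR adjusted p = 0.0139, kept in 4 of 6 fits, up to 0.0533 without control 2). Npm1 has processed pseudogene copies that may share its reads. Nolc1, a chaperone of snoRNPs, stood at 239 against 170.4 CPM with no overlap between groups and did not pass the test (edgeR adjusted p = 0.0613).

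**Figure D4:**
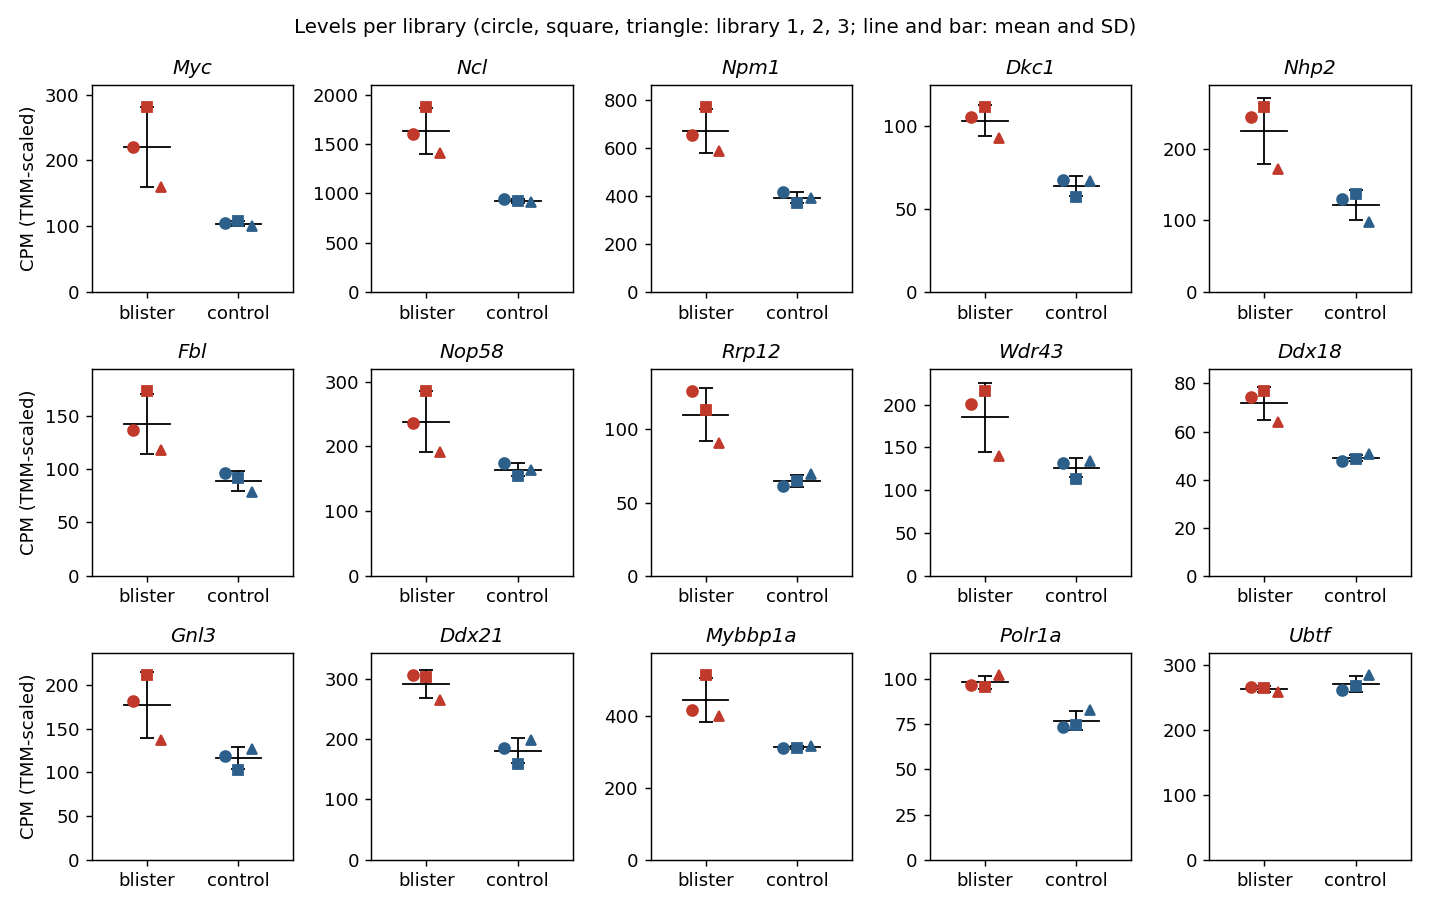
CPM of 15 genes in each library, blister left and control right, each axis starting at 0; symbols mark library 1, 2 and 3, the horizontal line the mean and the bar the SD. Blister 3 (triangle) is the lowest blister value in every panel except Polr1a, and Ubtf shows overlapping groups.

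Both classes of snoRNP core proteins held genes that rose. Box C/D snoRNPs add methyl groups to ribose. Their methyltransferase gene Fbl (fibrillarin) was at 136, 173 and 118 CPM in blister, against 96.3, 91.3 and 78.1 CPM in control, and it rose 1.61-fold (edgeR adjusted p = 0.0273). The scaffold gene Nop58 was at 236, 286 and 192 CPM in blister, against 174, 154 and 164 CPM in control, apart but just outside the threshold (0.54 ± 0.16 on the log2 scale, edgeR adjusted p = 0.0514). Its partner Nop56 stood at 175 against 132 CPM with overlapping groups (edgeR adjusted p = 0.110). The Fbl call was kept in 1 of 6 leave-one-out fits (adjusted p up to 0.0866, without control 3). Box H/ACA snoRNPs turn uridine into pseudouridine.

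Their catalytic subunit gene Dkc1 (dyskerin) was at 105, 112 and 93.3 CPM in blister, against 67.4, 57.1 and 67.2 CPM in control. It had the smallest p of the 34 genes (0.69 ± 0.12 on the log2 scale, edgeR adjusted p = 0.0128) and was the one gene whose call was kept in all 6 leave-one-out fits (up to 0.0496). Nhp2, a further core protein of these particles, was at 245, 258 and 172 CPM in blister, against 130.1, 137 and 97.8 CPM in control. Its 1.85-fold rise was the largest after that of Myc (edgeR adjusted p = 0.0224, kept in 1 of 6 fits, up to 0.0746 without blister 1). Gar1, also a core protein of these particles, stood at 47.4 ± 8.86 against 39.1 ± 4.69 CPM, with overlapping groups (edgeR adjusted p = 0.247).

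Among small-subunit factors all mean levels were higher in blister but few passed the test. Of 8 genes 2 rose, and 6 had no overlap between groups (median log2 fold change 0.48). Rrp12, which helps export the pre-40S particle, was at 126, 113 and 90.5 CPM in blister, against 61.1, 64.7 and 69.3 CPM in control (log2 fold change 0.76 ± 0.14 (SE), edgeR adjusted p = 0.0149, kept in 4 of 6 fits, up to 0.0649 without control 1). Bysl, an assembly factor of the pre-40S particle, rose too (log2 fold change 0.58 ± 0.15 (SE), 76.7 ± 14.1 against 51.1 ± 1.66 CPM, edgeR adjusted p = 0.0341, kept in 1 of 6 fits, up to 0.116 without control 1), and part of its exons overlaps Ccnd3 on the other strand.

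Wdr43, a subunit of the small-subunit processome, was at 200.4, 216 and 139.6 CPM in blister, against 132, 113 and 134 CPM in control, with blister 3 only just above the highest control (edgeR adjusted p = 0.0629). The U3 snoRNP protein gene Rrp9, the processome genes Nop14, Heatr1 and Utp20 and the endonuclease gene Nob1 had log2 fold changes between 0.35 and 0.56 and did not pass (edgeR adjusted p from 0.0746 for Nob1 to 0.0975 for Heatr1). Utp20 went against the usual order of the blister libraries, with blister 1 lowest at 94.96 CPM and blister 2 and 3 at 123 and 119 CPM.

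Large-subunit factors gave the highest share of calls among the roles with more than 1 gene. Of 10 genes 9 rose, with a median log2 fold change of 0.63; that this role differs from the others was not tested. The 3 subunits of the PeBoW complex, which is needed to process the large-subunit RNA, all rose: Bop1 (log2 fold change 0.64), Wdr12 (0.68) and Pes1 (0.44) (edgeR adjusted p = 0.0196, 0.0247 and 0.0406). Their calls were kept in 2, 1 and 1 of 6 leave-one-out fits (up to 0.0733, 0.0782 and 0.127). Rrs1, which helps bring the 5S particle into the pre-60S subunit, rose 1.72-fold, the most in this role (114 ± 24.5 against 66.0 ± 4.66 CPM, edgeR adjusted p = 0.0216, kept in 2 of 6 fits, up to 0.0708 without control 2).

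The helicase gene Ddx18 was at 74.2, 76.9 and 63.9 CPM in blister, against 47.9, 48.5 and 50.6 CPM in control, with the smallest p of this role (log2 fold change 0.55 ± 0.11 (SE), edgeR adjusted p = 0.0185, kept in 3 of 6 fits, up to 0.0818 without control 1). Gnl3, encoding nucleostemin, a nucleolar GTPase common in dividing and stem cells, was at 181, 212 and 137 CPM in blister, against 118, 102 and 127 CPM in control (edgeR adjusted p = 0.0468, kept in 1 of 6 fits, up to 0.134 without control 2). The RNA methyltransferase gene Nop2 and the assembly genes Nop16 and Ebna1bp2 rose, with log2 fold changes between 0.63 and 0.68 (edgeR adjusted p = 0.0331, 0.0433 and 0.0458), each kept in 1 of 6 fits (up to 0.0981, 0.122 and 0.124). Wdr74, an assembly factor of the pre-60S particle, stood at 79.7 against 61.6 CPM and did not pass (edgeR adjusted p = 0.127). Ddx21, a helicase with roles in RNA polymerase I transcription and in snoRNA release, was at 307, 303 and 265 CPM in blister, against 185, 159 and 199 CPM in control. It rose 1.61-fold (edgeR adjusted p = 0.016, kept in 3 of 6 fits, up to 0.0635 without control 1).

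Further genes of the same pathway, outside the 34, were counted in the same way. Of 110 other ribosome biogenesis genes tested 29 rose (26.4%) and 0 fell, against 9.74% of all genes that rose, with a positive log2 fold change for 102 and a median of 0.35. At an unadjusted p under 0.05 edgeR had 55 higher and 0 lower, with no share over all genes computed. DESeq2 called 47 and 0, and limma-voom 22 and 0, against 13.9% and 9.31% of all genes called higher. With edgeR's adjusted p, other settings gave other counts. The count was 5 with library size as the single scaling and 10 with Xist as a covariate. It was 4, 15 and 59 without blister 1, 2 or 3, and 3, 4 and 7 without control 1, 2 or 3. Of all genes 3.88% were called higher with library size alone and 5.0% with the covariate. Without each library in the same order the share was 3.74%, 7.23%, 13.9%, 2.15%, 3.35% and 3.83%. The counts with library size alone and without blister 1, control 1 or control 2 were near those shares. Such counts are no result about these genes. By role, 15 of 36 other small-subunit factors rose (median 0.39), 8 of 39 other large-subunit factors (0.38), 1 of 9 other snoRNP genes (0.34), 3 of 14 RNA exosome genes (0.29) and 2 of 12 other RNA polymerase I genes (0.16).

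Among them Eif6, which keeps the finished large subunit from joining too early, was at 447, 459 and 313 CPM in blister, against 198, 215 and 159 CPM in control, 2.13-fold higher (edgeR adjusted p = 0.0128, kept in 6 of 6 fits). Polr1d, a small subunit shared by RNA polymerases I and III, averaged 264 ± 42.4 CPM in blister and 131 ± 12.2 CPM in control, 2.01-fold higher (edgeR adjusted p = 0.00869, kept in 6 of 6 fits). Wdr36, a processome subunit, averaged 110.5 ± 16.4 against 61.0 ± 1.44 CPM (edgeR adjusted p = 0.00896, kept in 6 of 6 fits). Rrp7a and Ltv1, also small-subunit factors, rose with log2 fold changes of 0.65 and 0.64 (kept in 5 and 3 of 6 fits), and the large-subunit factors Nifk and Ddx10 with 0.71 and 0.63 (kept in 3 and 2). Nhp2l1, a snoRNP core protein, rose by 0.74 on the log2 scale, the RNA polymerase I gene Polr1e by 0.61, and the RNA exosome genes Exosc6, Exosc9 and C1d by 0.61, 0.64 and 0.55, each kept in 1 or 2 of 6 fits. Other members of these lists with the most counts did not pass: Bms1 stood at 130.2 against 105 CPM, Gltscr2 at 313 against 288 CPM and Ruvbl2 at 94.0 against 76.2 CPM, with edgeR adjusted p of 0.0841, 0.460 and 0.248. Exosc10, a nuclease of the RNA exosome and the member of that list with the most counts, stood at 87.7 ± 2.32 against 85.0 ± 4.71 CPM (edgeR adjusted p = 0.766).

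**Figure D5:**
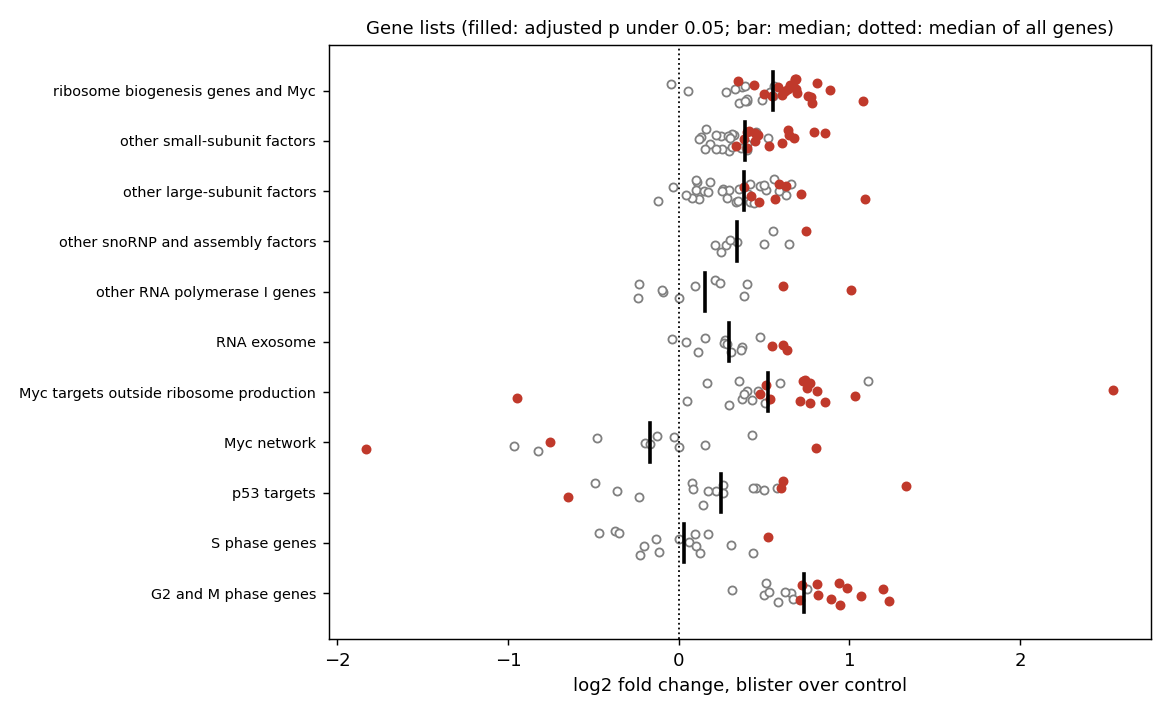
Log2 fold change, blister over control, of each tested gene in 11 lists (filled: edgeR adjusted p under 0.05), with the list median as a bar and the median of all genes dotted. The 34 genes and the known Myc targets outside ribosome production have medians of 0.56 and 0.53, while S phase genes sit at 0.03 and the Myc network at -0.17.

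Of 26 genes known as Myc targets outside ribosome production 13 rose and 1 fell, against 9.74% of all genes that rose. The log2 fold change was positive for 25 of the 26, with a median log2 fold change of 0.53. Shmt2, a mitochondrial enzyme of one-carbon metabolism, averaged 198 ± 24.7 CPM in blister and 117 ± 4.65 CPM in control (edgeR adjusted p = 0.0106). The nuclear transport gene Ran averaged 263 ± 38.9 against 154 ± 11.7 CPM, and the mitochondrial chaperone gene Hspd1 493 ± 61.3 against 300.3 ± 7.69 CPM (edgeR adjusted p = 0.0145 for each). The member that fell was the cyclin gene Ccnd2, at 289 ± 90.4 against 559 ± 109 CPM (edgeR adjusted p = 0.0333, kept in 1 of 6 fits, up to 0.108). Eif4a1, a translation factor and the target with the most counts, averaged 589 against 446 CPM and did not pass (edgeR adjusted p = 0.0718). The calls of Shmt2, Ran and Hspd1 were kept in 5, 4 and 4 of 6 fits (up to 0.0507, 0.0607 and 0.0604).

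Proliferation genes gave values to set beside these. Of 16 S phase genes 1 rose (Rrm1) and 0 fell in edgeR, near the 9.74% of all genes that rose, with a median log2 fold change of 0.03. At an unadjusted p under 0.05 edgeR had 3 higher and 2 lower, DESeq2 called 2 higher and 1 lower, and limma-voom 1 higher and 1 lower. In either direction DESeq2 called 28.4% of all genes and limma-voom 20.8%. Mcm6, the S phase gene with the most counts, averaged 176 against 194 CPM and did not pass (edgeR adjusted p = 0.403). The Rrm1 call was kept in 1 of 6 fits (up to 0.148). Of 20 genes of the G2 and M phases 11 rose and 0 fell in edgeR, against the same 9.74%, with a median of 0.74. DESeq2 called 15 higher and 0 lower, and limma-voom 11 and 0, against 13.9% and 9.31% of all genes called higher. At an unadjusted p under 0.05 edgeR had 16 higher and 0 lower, with no share over all genes computed. Whether the lists of both phases differ was not tested. Anln, Ube2c and Ccnb1 rose 2.35-fold, 2.29-fold and 2.10-fold (kept in 5, 4 and 4 of 6 fits), while Mki67, the one with the most counts, stood at 502 against 404 CPM and did not pass (edgeR adjusted p = 0.407). The mean log2(CPM + 1) of that list was 6.20, 6.97 and 6.71 over the blister libraries, against 5.62, 6.16 and 5.88 over the controls. Its order among the blister libraries was thus not that of the 34 genes, since blister 1 and not blister 3 was lowest.

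A halted nucleolus is known to stabilise p53, so p53 targets were read as well. Of 19 tested 3 rose and 1 fell, a share near the 21.3% called over all genes, so the count is no result about the list. The median log2 fold change was 0.25. Pmaip1, a gene that promotes cell death, was at 58.0, 52.0 and 46.9 CPM in blister, against 22.9, 19.7 and 19.7 CPM in control, 2.52-fold higher (edgeR adjusted p = 0.00424, kept in 6 of 6 fits). Phlda3 and Ccng1 rose 1.52-fold and 1.53-fold (edgeR adjusted p = 0.0116 and 0.0181, kept in 5 and 4 of 6 fits, up to 0.0607 and 0.0641), and Bbc3 fell 1.57-fold (edgeR adjusted p = 0.0439, kept in 1 of 6 fits, up to 0.14). Cdkn1a, the target with the most counts, stood at 334 ± 55.4 against 316 ± 68.5 CPM (edgeR adjusted p = 0.801).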

How the data were processed

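RNA was measured in 3 blister and 3 control libraries. Reads were aligned with HISAT2 2.0.0 and counted with featureCounts (no version stated), and NCBIM37 and mm9 are named as builds, per the submitters' processing notes. The authors deposited raw counts per gene symbol, 1 table a library, with 24014 symbols, of which 3759 were at 0 throughout. Whether counting used strand is not stated. Exons of 10 of the 34 genes overlap another of the counted symbols on the opposite strand (5 to 361 bases, GENCODE M21), so a few of their reads may belong to it. Exons of Nop14, Pes1, Polr1a and Wdr43 overlap an opposite-strand gene that is not among the counted symbols.

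The 34 genes, the other gene lists and the rules for naming genes were chosen with earlier results of these data known. Named are all 34 genes, the calls of each other list (up to 5, otherwise the 3 smallest p-values in each direction) and its gene with the most counts, except that for cell type lists only some such genes are named. Promoter sites beyond that of Nop2 were added after their values were seen.

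Genes were tested with edgeR 4.0.16 in R 4.3.3 (quasi-likelihood F-test, two-sided, TMM scaling, the group as single term), after filterByExpr by group (minimum count 10, minimum total 15) had left 14028 genes. P-values were adjusted by Benjamini-Hochberg over all of them, with a threshold of 0.05. Fold changes are blister over control. Alternatives used DESeq2 1.42.0, limma 3.58.1 (voom), other scalings and filters, the replicate number as a block, an Xist covariate and fewer libraries. The procedure was tested on simulated data. No 2 libraries of a group were copies of each other. Plots were drawn with matplotlib 3.10.9.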

Additional observations from a re-analysis of the deposited data

How the results depend on the processing

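All 34 genes kept the direction of their change under each alternative run, with 2 exceptions: Polr1c had a log2 fold change of -0.20 with library size alone, and Ubtf of 0.0119 without blister 3 and control 3. The count of genes called, all of them higher, was 20 with all libraries. It was 5 with library size alone (median log2 fold change 0.30) and 11 with Xist as a covariate, where 1745 genes were called overall; it ran from 16 to 23 with median-of-ratios scaling, without the 50 most abundant genes (Ncl among them), with no filter, with a stricter one (5 CPM or more, 3 libraries), with DESeq2, with limma-voom and with the block. Without blister 3 and control 3 it was 28, where 9.57% of all genes were called higher, and the median was 0.72. In the settings with 16 to 23 calls, between 6.22% (no filter) and 13.9% (DESeq2) of all genes were called higher. That share was 3.88% with library size alone and 5.0% with the Xist covariate. In the fits that left out 1 library the count ran from 1 to 28, the median from 0.46 to 0.73 and the calls over all genes from 785 to 4059. The cause of these differences was not tested.

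The replicate number as a block gave 16 calls among the 34 genes and 2876 over all genes. Deviations of same-numbered libraries correlated at 0.212, -0.259 and 0.0107. Differently numbered libraries ran from -0.387 (blister 1 with control 3) to 0.343 (blister 1 with control 2). What the number marks is not stated, and with so few libraries these values cannot tell whether same-numbered libraries were paired. The smallest rise called with all libraries was 1.27-fold.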
